A study of Homo sapiens with 4 samples.

Results

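The genes of programmed cell death described here are 43 of the 20804 genes in an RNA sequencing table of MDA-MB-231, an established mesenchymal-like human line of triple-negative breast cancer. They were taken by symbol, and all 43 were listed, with 1 row each. The table holds 4 libraries made from total RNA. The 2 WT libraries come from cells labelled WT and the 2 KO libraries from cells with the genotype miR-3662-KO. Both groups are of the same line, with no treatment given in the labels. The series title names CRISPR interference and activation of a miR-3662 and HBP1 axis, and the design text names sorting by miR-3662 activity. How the KO cells were made and whether they are 1 clone is therefore uncertain. The file headers number the WT libraries in sequence, whereas the second KO header extends the first. Whether this sets the 2 KO libraries apart is uncertain. Nothing in the labels says that libraries of a group came from separate cultures, and p-values then measure only the spread between these libraries, which may be technical.

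Cells die by apoptosis along either of 2 routes that converge on caspases, proteases that dismantle the cell. In the mitochondrial route, BH3-only proteins engage the anti-apoptotic BCL2 proteins or the effectors BAX and BAK1, the effectors open the outer mitochondrial membrane, and released cytochrome c assembles APAF1 and CASP9 into the apoptosome. In the receptor route, ligands of the TNF family bind death receptors, which recruit FADD or TRADD and activate CASP8, with CFLAR as its inhibitor. MDA-MB-231 is widely used as a line that dies when treated with the death ligand TRAIL (TNFSF10).

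FPKM values (fragments scaled by transcript length and by the mapped fragments of each library) summed to 504102 and 520527 in WT and 528986 and 544650 in KO. Genes at 1 FPKM or more numbered 11283 and 11344 in WT and 11720 and 11723 in KO, and genes listed at 0 numbered 3324 and 3308 against 3022 and 2994. The groups did not overlap in any of these 3 figures, and their part in the results was not tested. Read depth was not given, so the precision of low values is unknown. Of the genes that mark the mesenchymal-like state, VIM, CD44, AXL and LGALS1 lay between 104 and 1321 FPKM in all libraries and did not pass the test described below, while SPARC was at or below 0.55. CAV1, the caveolin gene, rose from 178.9 and 170.5 FPKM in WT to 442.8 and 449.7 in KO (log2 fold change 1.35, adjusted p 0.000536, limma). ESR1 and CDH1 were at or below 0.03 FPKM, ERBB2 was between 8.55 and 11.4, and EPCAM was at 1.08 and 1.15 in WT and 0.34 and 0.05 in KO (adjusted p 0.0103, limma), having entered the test only through its WT values. PGR was not matched in the table. Of the markers of other cells a culture could hold, 4 of 5 leukocyte genes were listed with a summed level of 0.5 to 0.74 FPKM in WT and 0.64 to 0.75 in KO, with PTPRC and CD3E at 0. The 3 endothelial genes summed to 0.12 to 0.15 and 0.27 to 0.45 FPKM, and the 3 of 4 fibroblast genes that were listed summed to 1.13 to 1.48 and 0.3 to 0.37, mostly COL1A1, which fell (adjusted p 0.00915, limma) and likewise entered the test only through WT. The microRNA is too short for these libraries, so its loss was not checked here.

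The microRNA named in the genotype is shown first, with its seed, bases 2 to 8, in capitals, because sites that pair with the seed are the usual way a microRNA finds its targets. The mature sequence from RefSeq (GRCh38.p14) lies on chromosome 6 from 134979355 to 134979378, minus strand.
hsa-miR-3662: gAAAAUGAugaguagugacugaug
A site for this seed reads TCATTTT in the messenger. In the longest annotated 3′ UTR (GENCODE 29), 10 of the 41 tested members held such a site, 24.4%, against 33.5% of 10618 tested genes with a UTR. XIAP, with 3 sites, was the only member with a site among those whose level changed. Its sites lie on chromosome X (GRCh38, plus strand) from 123908022 to 123908028, 123911797 to 123911803 and 123911906 to 123911912, and are shown with the site in capitals.
XIAP site 1: ttctactttttTCATTTTgttctgttcgaa
XIAP site 2: cacttcaataaTCATTTTcagtttgactca
XIAP site 3: atccagttcttTCATTTTacaggtgaggca
CFLAR held 5 sites and BCL2 held 2, and BCL2L1, BCL2L2, BCL2L11, BOK, PMAIP1, BIRC6 and CASP9 held 1 each. The median log2 fold change of the 10 members with a site was -0.03 and that of the 31 without was 0.16, beside 0.09 and 0.06 for all tested genes. UTRs with a site were longer (median 2873 against 1242 bases in the members), and a match says only that the letters are present.

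Comparing KO with WT asks which of these genes differed with the genotype. Of the 43 members, 41 reached 1 FPKM in at least 2 libraries and were tested, and 6 of them changed at an adjusted p under 0.05 (limma, adjusted over all 11786 tested genes). TNFRSF21, GSDMD, TRADD, XIAP and BMF were higher in KO, and TNFRSF10D was lower. BMF met the limit of 1 FPKM only in KO, so its call was partly fixed by that limit. Without the limit TNFRSF21 was the only 1 of 43 members that passed, beside 290 higher and 235 lower of 19833 genes. In bulk RNA, fewer cells that express a gene and less RNA per cell cannot be told apart. These 6 are 14.6% of the tested members, whereas 27.0% of all tested genes changed, 16.2% higher and 10.8% lower. The remaining 35 tested members differed by less than 0.5 on the log2 scale, and 11 of the 41 had an unadjusted p under 0.05 (26.8%, against 41.3% of all tested genes). The median log2 fold change of the tested members was 0.07, as it was for all tested genes (0.07). The KO values lay wholly above the WT values in 15 tested members and wholly below in 12, against 39.3% and 28.7% of all tested genes. Together these are 65.9% of the tested members and 68.0% of all tested genes. With median of ratios scaling of the libraries, 5 members were higher and 3 lower, BAK1 and ENDOG being added to the falls, and the split over all tested genes went from 1906 higher and 1278 lower to 1557 and 1613 (13.2% and 13.7%).

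**Figure D1:**
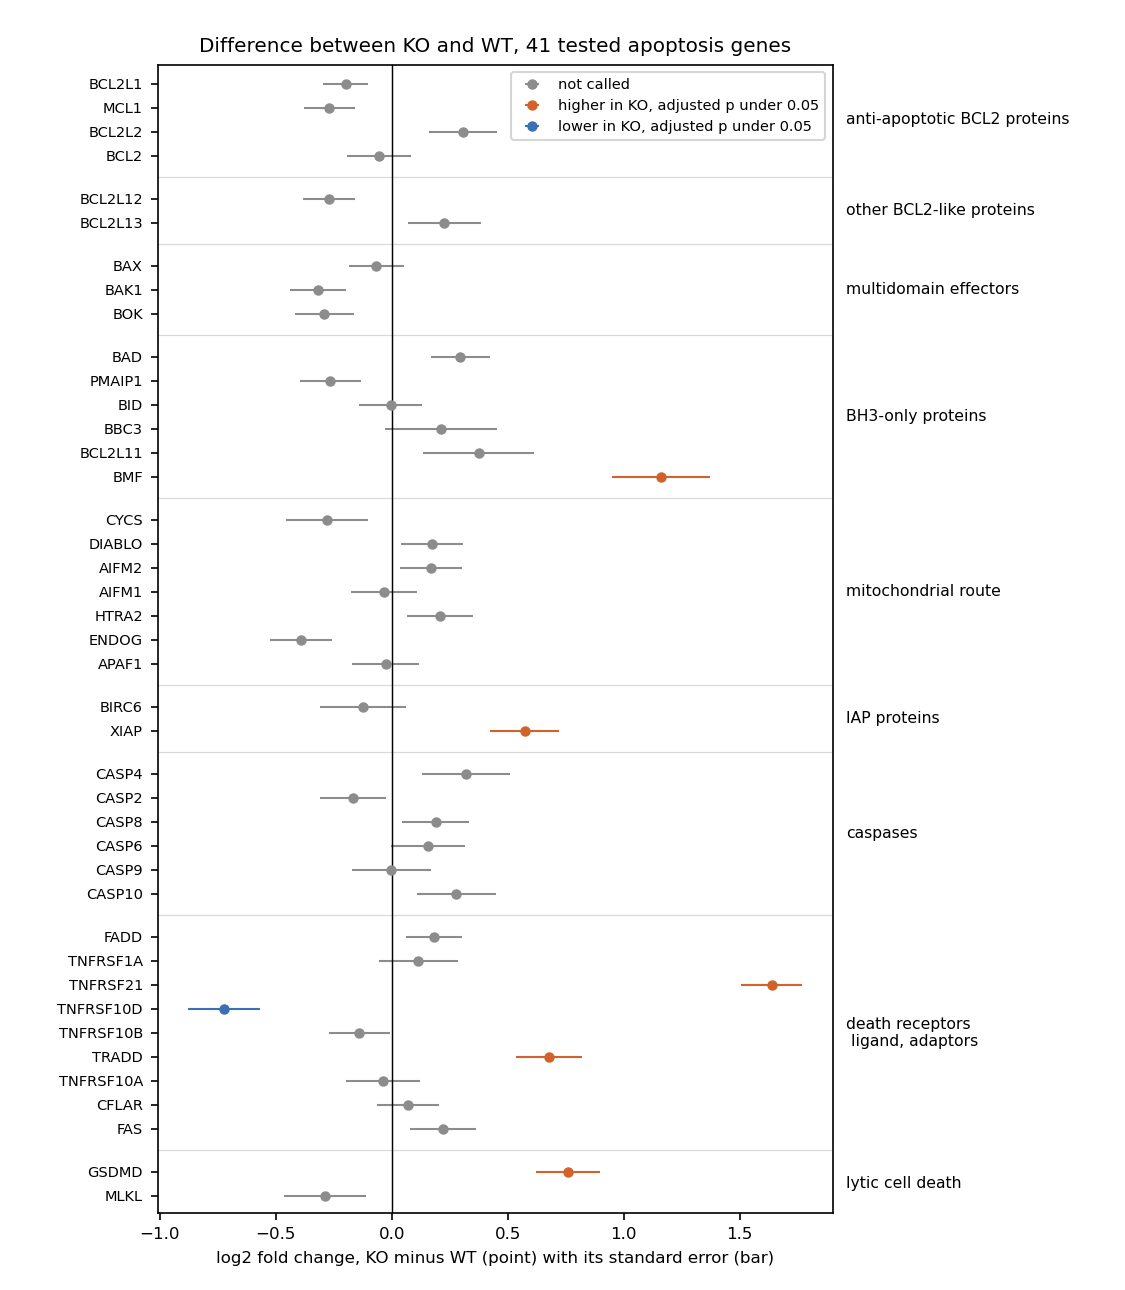
Log2 fold change between KO and WT (x axis, on the log2(FPKM + 1) scale, 2 libraries per group) for the 41 tested genes, grouped by role on the y axis, with points for the estimate and bars for its standard error from limma. TNFRSF21 stands farthest right at 1.64 and TNFRSF10D farthest left at -0.72, and 35 genes lie within 0.5 of zero.

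Of the 43 members, 32 had a mean of at least 5 FPKM, in a list chosen with earlier results of these data known. At least 5 FPKM in at least 2 libraries was reached by 33 members and by 8457 of all 20804 listed genes. FPKM is scaled by length, so levels can be ranked between genes. BCL2L1 came first, followed by BAX and BAD, the only members with a mean over 100 FPKM, and MCL1, FADD, TNFRSF1A and BCL2L12 were the others with at least 50. BCL2L1 exceeded BAX in every library by a wide margin, but the order of BAX and BAD differed between the groups. BAX was at 112.1 and 129.8 FPKM in WT, above BAD at 93.2 and 112 in the same libraries. In KO, BAX was at 111.8 and 118.7, below BAD at 121.3 and 130.2. At the other end were CASP10, BMF, BIK and TNFSF10.

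**Figure D2:**
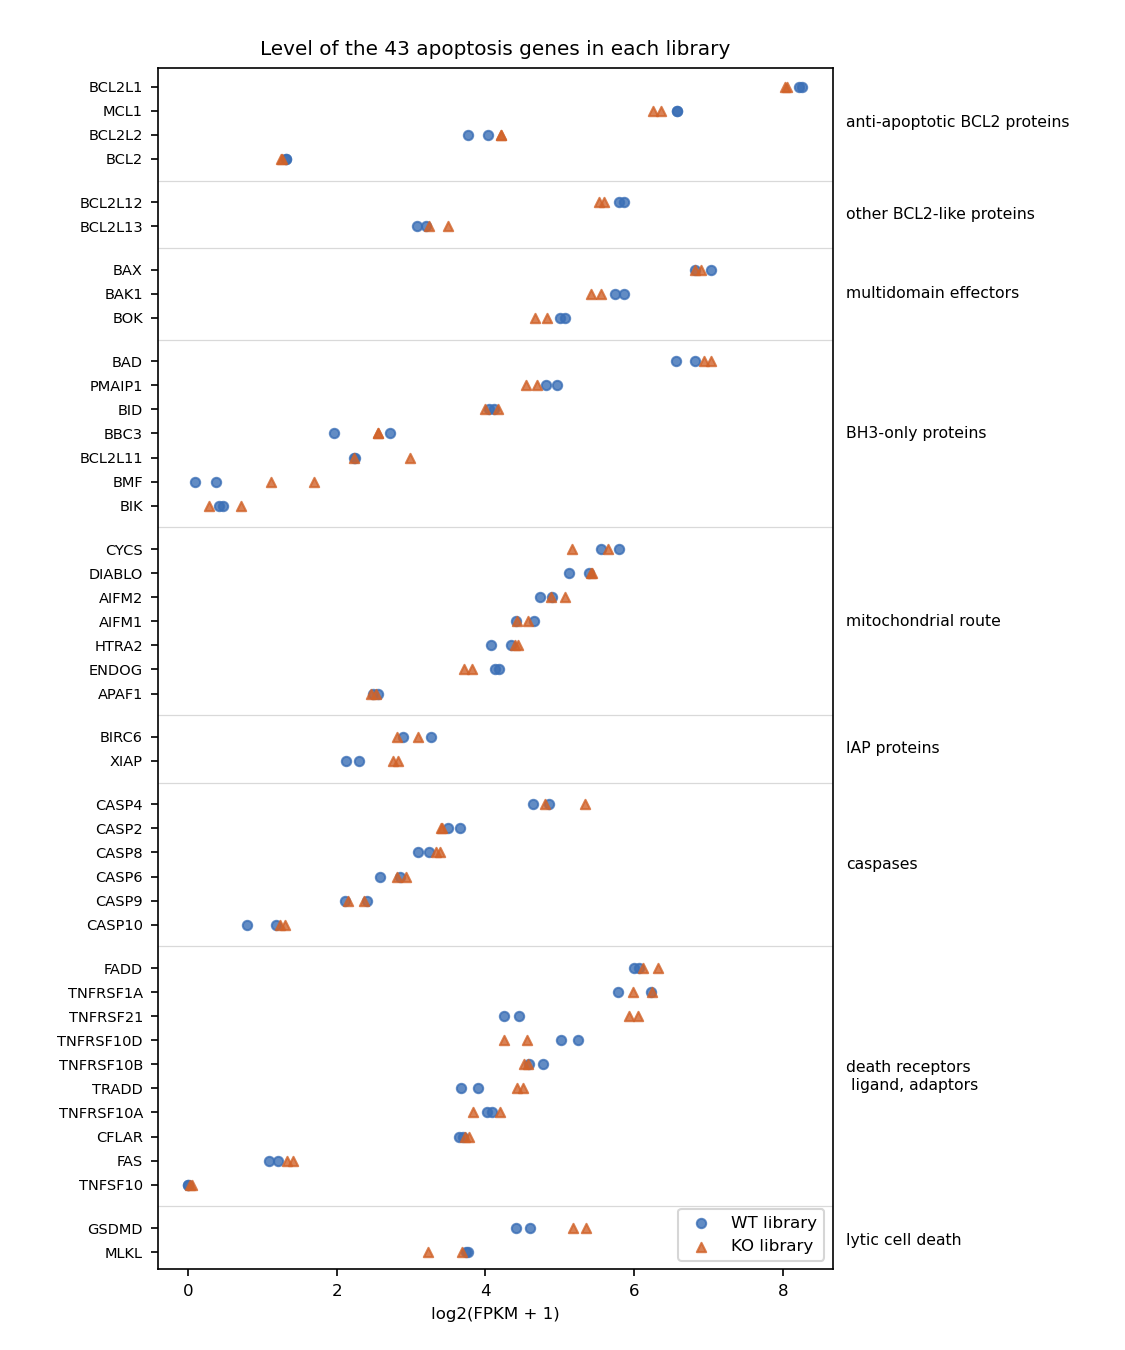
Level of each of the 43 genes as log2(FPKM + 1) on the x axis, by role on the y axis, with circles for the 2 WT and triangles for the 2 KO libraries. The groups do not overlap in 27 of the 41 tested genes (65.9%, against 68.0% of all tested genes). The 6 genes that passed the test (14.6%, against 27.0%) are TNFRSF21, TNFRSF10D, GSDMD, TRADD, XIAP and BMF.

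For 3 of the genes that rose, the promoter (250 bases before to 50 after a RefSeq start, GRCh38.p14) is shown so that their sequences can be compared. Promoter windows matched 34 of the 43 members. The TNFRSF21 window lies on chromosome 6 from 47309856 to 47310155 (minus strand), the BMF window on chromosome 15 from 40108830 to 40109129 (minus strand) and the XIAP window on chromosome X from 123859458 to 123859757 (plus strand), the first listed start for the last 2. Capitals mark matches, on either strand, to the GC box GGGCGG, the E-box CACGTG, the core TGACG of the cAMP response element, the AP-1 element TGACTCA, the HBP1 element TTCATTCA and an interferon response motif GAAANNGAA.
TNFRSF21: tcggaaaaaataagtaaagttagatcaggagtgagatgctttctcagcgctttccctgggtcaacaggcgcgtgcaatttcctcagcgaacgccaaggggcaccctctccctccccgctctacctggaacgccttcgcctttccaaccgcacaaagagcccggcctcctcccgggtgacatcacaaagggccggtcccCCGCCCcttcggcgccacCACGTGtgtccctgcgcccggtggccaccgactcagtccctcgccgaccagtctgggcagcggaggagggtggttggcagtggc
BMF: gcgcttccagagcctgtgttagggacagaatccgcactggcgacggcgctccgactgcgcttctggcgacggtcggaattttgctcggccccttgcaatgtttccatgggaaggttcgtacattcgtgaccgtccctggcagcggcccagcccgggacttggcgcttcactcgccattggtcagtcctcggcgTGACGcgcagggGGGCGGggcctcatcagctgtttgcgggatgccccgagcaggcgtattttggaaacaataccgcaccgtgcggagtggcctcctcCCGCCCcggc
XIAP: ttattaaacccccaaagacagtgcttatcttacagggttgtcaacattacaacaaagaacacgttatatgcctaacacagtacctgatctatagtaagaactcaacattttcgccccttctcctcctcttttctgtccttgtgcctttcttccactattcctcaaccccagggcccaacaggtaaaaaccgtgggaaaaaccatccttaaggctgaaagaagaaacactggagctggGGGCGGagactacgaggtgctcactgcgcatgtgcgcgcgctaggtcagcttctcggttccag
All 3 windows held a GC box (2 in BMF), as did 67.6% of the windows of tested genes and 45.0% of all 35116 windows of this length. The E-box of TNFRSF21 occurred in 9.56% of windows of tested genes (7.26% of all), and the TGACG of BMF in 32.8% (24.6% of all). None of the 3 windows held the AP-1, HBP1 or interferon letters, which were found in 3.43%, 1.17% and 6.36% of windows of tested genes (4.95%, 1.65% and 8.11% of all). GC content was 63.3% for TNFRSF21, 65.0% for BMF and 48.0% for XIAP, beside a median of 65.0% for tested genes.

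The largest difference among the members was in a death receptor. TNFRSF21 (gene identifier 27242, chromosome 6 from 47231532 to 47309905), also called death receptor 6, carries a death domain and is best known from neurons and lymphocytes. Its level was 18.03 and 20.8 FPKM in WT and 59.9 and 65.1 in KO. Both KO values were far above both WT values. The mean went from 19.4 ± 1.98 to 62.5 ± 3.68 FPKM (SD, n = 2), which is 1.64 ± 0.13 (SE) on the log2 scale (adjusted p 0.000649, limma). Of all tested genes, 99.4% had a lower log2 fold change. No annotated gene overlaps it. Of the summed FPKM of the 6 receptor members, TNFRSF21 made up 12.1% and 12.4% in WT and 31.4% and 34.1% in KO.

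Of the receptors for TRAIL, 1 fell and none of the other tested ones passed, while 10.8% of all tested genes fell and 16.2% rose. TNFRSF10D, a decoy receptor that binds TRAIL but has a truncated death domain, was at 36.9 and 31.3 FPKM in WT and at 18.1 and 22.6 in KO. Both KO values were below both WT values, and the level fell by 0.72 ± 0.16 (SE) on the log2 scale (adjusted p 0.0145, limma). Without the first WT library its adjusted p was 0.0739 and without the first KO library 0.0572. The signalling receptors TNFRSF10A and TNFRSF10B, its neighbours in the same gene cluster, did not pass. TNFRSF10A was at 16.0 and 15.2 FPKM in WT and 13.3 and 17.3 in KO (-0.04, 95% interval -0.41 to 0.33), and TNFRSF10B at 23.1 and 26.4 and at 22.7 and 21.9 (-0.14, interval -0.45 to 0.17). The second decoy receptor gene, TNFRSF10C, was at 0.06 FPKM in both WT libraries and at 0.27 and 0.26 in KO, under the limit for testing. TNFRSF10D made up 48.6% and 42.9% of the summed FPKM of the 4 TRAIL receptors in WT, and 33.3% and 36.4% in KO. These receptors resemble one another in sequence, and the sources used here do not say how shared reads were split.

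TRADD, the adaptor that links the TNF receptor to survival or death signalling, rose. It was at 11.8 and 13.9 FPKM in WT and at 20.4 and 21.7 in KO, groups that did not overlap, a log2 fold change of 0.68 ± 0.14 (SE; adjusted p 0.0136, limma). Without the first WT library the adjusted p was 0.0704 and without the second KO library 0.0681. TRADD overlaps FBXL8 on the other strand, and reads of such pairs cannot be told apart unless strand was used in counting, which the labels do not say. The same holds for BMF with BMF-AS1 and for XIAP with XIAP-AS1. TNFRSF1A, the TNF receptor that TRADD binds, was at 54.1 and 73.7 FPKM in WT and 74.9 and 62.6 in KO, so its groups overlapped (0.12, adjusted p 0.637). FADD, the adaptor of the TRAIL and FAS receptors, was at 63.2 and 65.8 FPKM in WT and 68.3 and 78.8 in KO (0.18, adjusted p 0.287). CFLAR, the inhibitor of CASP8 activation, stayed between 11.6 and 12.7 FPKM in all libraries (0.07, 95% interval -0.24 to 0.38). FAS was at 1.31 and 1.13 FPKM in WT and 1.65 and 1.52 in KO (0.22, adjusted p 0.276). The ligand gene TNFSF10 was listed at 0 in both WT libraries and at 0.04 and 0.02 FPKM in KO and was not tested. Over the receptor, ligand and adaptor genes, 2 of 9 tested members rose and 1 fell (22.2% and 11.1%), against 16.2% and 10.8% of all tested genes.

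**Figure D3:**
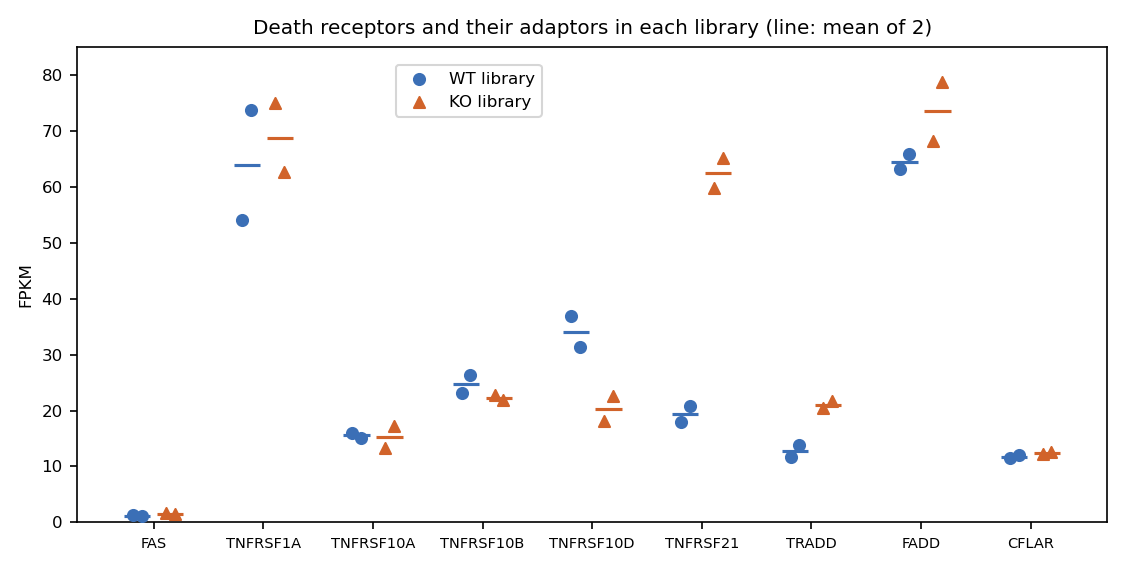
FPKM (y axis, linear from 0) of 6 death receptors and the adaptors TRADD, FADD and CFLAR in each library, with circles for WT, triangles for KO and a line for each mean of 2. TNFRSF21 and TRADD lie higher in KO and TNFRSF10D lower, and the WT and KO points of TNFRSF1A and TNFRSF10A overlap.

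In the BCL2 family, BMF was the only 1 of 15 tested genes that passed, against 27.0% of all tested genes. BMF entered the test through its KO values alone. None of the 4 anti-apoptotic genes passed (limma, 1 with an unadjusted p under 0.05, 25.0% against 41.3% of all tested genes). BCL2L1, which encodes BCL-XL and supplied 73.2% of their summed FPKM, was at 297.7 and 304.7 FPKM in WT and 260.8 and 264.5 in KO (-0.20 ± 0.10 SE, adjusted p 0.167). MCL1, a short-lived protein that restrains BAK1, was at 94.1 and 94.5 FPKM in WT and 75.0 and 81.3 in KO (-0.27 ± 0.11, adjusted p 0.106). Both genes had all KO values under all WT values, but the differences did not pass. BCL2L2, which encodes BCL-W, was at 12.6 and 15.4 FPKM in WT and at 17.5 in both KO libraries (0.31, adjusted p 0.151). BCL2 itself was low, at 1.48 FPKM in both WT libraries and 1.40 and 1.37 in KO. BCL2L12 was at 54.8 and 57.1 FPKM in WT and 47.3 and 45.1 in KO (-0.27, adjusted p 0.114), and BCL2L13, a mitophagy receptor, was between 7.45 and 10.3 FPKM (0.23, adjusted p 0.307).

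None of the 3 effectors passed in limma either, against 27.0% of all tested genes, and 1 had an unadjusted p under 0.05, against 41.3%. BAX was at 112.1 and 129.8 FPKM in WT and 111.8 and 118.7 in KO, with overlapping groups (-0.07, 95% interval -0.34 to 0.21). BAK1 was at 52.7 and 57.3 FPKM in WT and 41.9 and 46.0 in KO, with no overlap (-0.32 ± 0.12 SE, adjusted p 0.0871), and with median of ratios scaling its adjusted p was 0.0472. BOK was at 31.2 and 32.4 FPKM in WT and 24.5 and 27.3 in KO (-0.29, adjusted p 0.123). The ratio of BCL2L1 to BAX was 2.66 and 2.35 in WT and 2.33 and 2.23 in KO, and every KO value was under every WT value by a margin smaller than the gap between the WT libraries.

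Among the BH3-only genes, BMF rose. BMF, whose protein is held at the cytoskeleton and binds anti-apoptotic BCL2 proteins, was at 0.07 and 0.30 FPKM in WT and 2.22 and 1.16 in KO. It entered the test only through its KO values, so a difference was built into its selection. On the log2(FPKM + 1) scale the fold change was 1.16 ± 0.21 (SE; adjusted p 0.00864, limma), and it was 2.71 with a pseudocount of 0.1. Without either KO library it no longer met the filter. Of the other 5 tested BH3-only genes none passed in limma, against 27.0% of all tested genes. Among these 5, only BAD had an unadjusted p under 0.05, against 41.3% of all tested genes. BAD supplied 68.5% of the summed FPKM of the group. BAD, a sensitiser controlled by phosphorylation, was at 93.2 and 112 FPKM in WT and 121 and 130.2 in KO (0.30, adjusted p 0.117). PMAIP1, which encodes NOXA, was at 27.0 and 30.3 FPKM in WT and 22.4 and 25.0 in KO (-0.27, adjusted p 0.171).

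Some BH3-only genes varied most between replicates, among them BMF, whose 2 WT values were 4.29 times apart and whose 2 KO values 1.91 times. BCL2L11, which encodes BIM, was at 3.73, 3.68 and 3.70 FPKM in both WT libraries and the second KO library and at 6.93 in the first KO library (adjusted p 0.271). BBC3, which encodes PUMA, was at 2.89 and 5.57 FPKM in WT and 4.86 and 4.85 in KO. BID, the link from CASP8 to mitochondria, stayed between 14.9 and 16.9 FPKM in all libraries. BIK was at 0.38 and 0.33 FPKM in WT and 0.63 and 0.21 in KO and was not tested.

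Downstream of the mitochondria, none of 7 genes passed in limma, against 27.0% of all tested genes. Of these 7, 1 had an unadjusted p under 0.05 (14.3%, against 41.3% of all tested genes). CYCS, the cytochrome c gene, was at 54.8 and 46.1 FPKM in WT and 34.8 and 49.0 in KO (-0.28, adjusted p 0.272), and it has 40 pseudogene copies by name in GENCODE 29 that can share its reads. DIABLO, whose product relieves caspases from inhibition, was at 33.8 and 40.8 FPKM in WT and 41.9 and 42.1 in KO (0.17, adjusted p 0.357). HTRA2, a protease with the same action, had a log2 fold change of 0.21, AIFM2, a suppressor of ferroptosis, 0.17, AIFM1 -0.03 and the apoptosome scaffold APAF1 -0.02. ENDOG, a mitochondrial nuclease, was at 16.5 and 17.2 FPKM in WT and 13.2 and 12.04 in KO (-0.39 ± 0.13 SE, adjusted p 0.0651), and its adjusted p was 0.0434 with median of ratios scaling.

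XIAP, which blocks caspases directly, rose while BIRC6, a giant ubiquitin ligase of the same family, did not pass. XIAP was at 3.92 and 3.36 FPKM in WT and 5.73 and 6.05 in KO, without overlap, a log2 fold change of 0.57 ± 0.15 (SE; adjusted p 0.0281, limma). It has 3 pseudogene copies by name that can share its reads. The call was lost when any 1 library was left out, with adjusted p of 0.0508 and 0.108 without the first and second WT library and 0.0877 and 0.136 without the first and second KO library. BIRC6 was at 8.64 and 6.39 FPKM in WT and 7.54 and 6.03 in KO (-0.12, adjusted p 0.645).

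No caspase member passed in limma, against 27.0% of all tested genes. An unadjusted p under 0.05 was found in 0 of 6, against 41.3% of all tested genes. CASP4, an inflammatory caspase that senses lipopolysaccharide, was at 27.96 and 23.96 FPKM in WT and 26.9 and 39.4 in KO (0.32, adjusted p 0.235). CASP2, a caspase tied to the stress of abnormal mitosis, was at 11.7 and 10.2 FPKM in WT and 9.54 and 9.71 in KO (-0.17, adjusted p 0.408). CASP8, the initiator of the receptor route, was at 7.54 and 8.49 FPKM in WT and 9.07 and 9.48 in KO (0.19, 95% interval -0.14 to 0.52). CASP9, its counterpart in the mitochondrial route, lay between 3.32 and 4.31 FPKM in all libraries (0.00, interval -0.40 to 0.39). CASP6 lay between 4.98 and 6.60 FPKM, and CASP10 between 0.73 and 1.46. CFLAR, CASP10 and CASP8 lie side by side on chromosome 2 between 201116164 and 201287711, and none of the 3 passed.

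Of the genes of lytic death, GSDMD rose. GSDMD, the pore-forming protein of pyroptosis, was at 20.3 and 23.2 FPKM in WT and 40.0 and 35.0 in KO. The groups did not overlap, and the mean went from 21.7 ± 2.02 to 37.5 ± 3.48 FPKM (SD, n = 2), which is 0.76 ± 0.14 (SE) on the log2 scale (adjusted p 0.00818, limma). No annotated gene overlaps it. It and TNFRSF21 were the 2 members whose calls were kept whichever library was left out. MLKL, the executor of necroptosis, was at 12.3 and 12.5 FPKM in WT and 8.39 and 11.9 in KO (-0.29, adjusted p 0.258).

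Members known as interferon-inducible genes were counted as a further group. Of the interferon-inducible genes FAS, CASP4, CASP8, MLKL, GSDMD and BAK1, GSDMD was the only 1 of 6 that passed (16.7%, against 27.0% of all tested genes), and their median was 0.21, against 0.07. With median of ratios scaling BAK1 was added as a fall. TNFSF10 belongs to them too and was not tested.

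A list of 50 other cell death genes gave the surroundings of the members. The table listed 47, of which 32 were tested, with 4 higher and 5 lower in KO, 12.5% and 15.6% against 16.2% and 10.8% of all tested genes. BIRC3, an inhibitor of apoptosis induced by NF-κB, was at 1.67 and 1.31 FPKM in WT and 9.77 and 11.1 in KO (2.20 ± 0.16 SE, adjusted p 0.000489), and BNIP3L, a mitophagy receptor, was at 15.2 and 16.7 and at 41.5 and 47.7 (1.42, adjusted p 0.00114). TRAF2, which TRADD recruits, was at 29.7 and 30.2 FPKM in WT and 16.0 and 15.1 in KO and fell by 0.90 ± 0.13 (SE) on the log2 scale (adjusted p 0.0038). DFFA, the inhibitor of the apoptotic nuclease, was at 29.6 and 31.3 FPKM in WT and 19.1 and 18.7 in KO and fell by 0.66 (adjusted p 0.00945). TRADD and TRAF2, which act in the same receptor complex, thus changed in opposite directions.

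Neither of the other inhibitors of apoptosis that were named by rule passed. BIRC2 was at 38.2 and 23.6 FPKM in WT and 25.4 and 31.9 in KO (-0.08, adjusted p 0.825), and BIRC5, the survivin gene, was at 137.8 and 138.2 and at 128.7 and 102.8 (-0.26, adjusted p 0.174).

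The position of the members on the chromosomes was not used to choose them. For each gene the median log2 fold change of the tested genes within 5 Mb was taken as a description. Around ENDOG on chromosome 9 the 113 neighbours had a median of -0.40, close to its own -0.39, and 47 of them were lower in KO and 7 higher. TRAF2 lies on the same arm, where 81 neighbours had a median of -0.39 with 36 lower and 6 higher. The 20 neighbours of XIAP on chromosome X had a median of 0.39, with 6 of them higher in KO, beside its own 0.57, whereas AIFM1, also on chromosome X, was at -0.03 among 21 neighbours with a median of 0.44. Around TNFRSF21, BMF and TRADD the medians were 0.05, -0.04 and -0.10, far from the genes' own values. Around GSDMD and TNFRSF10D they were 0.18 and 0.16. These genes are named because they passed the test, so a distance from the median was partly built in. BMF also entered the test only through its KO values. Whether the number of gene copies differed between the cells was not tested.

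**Figure D4:**
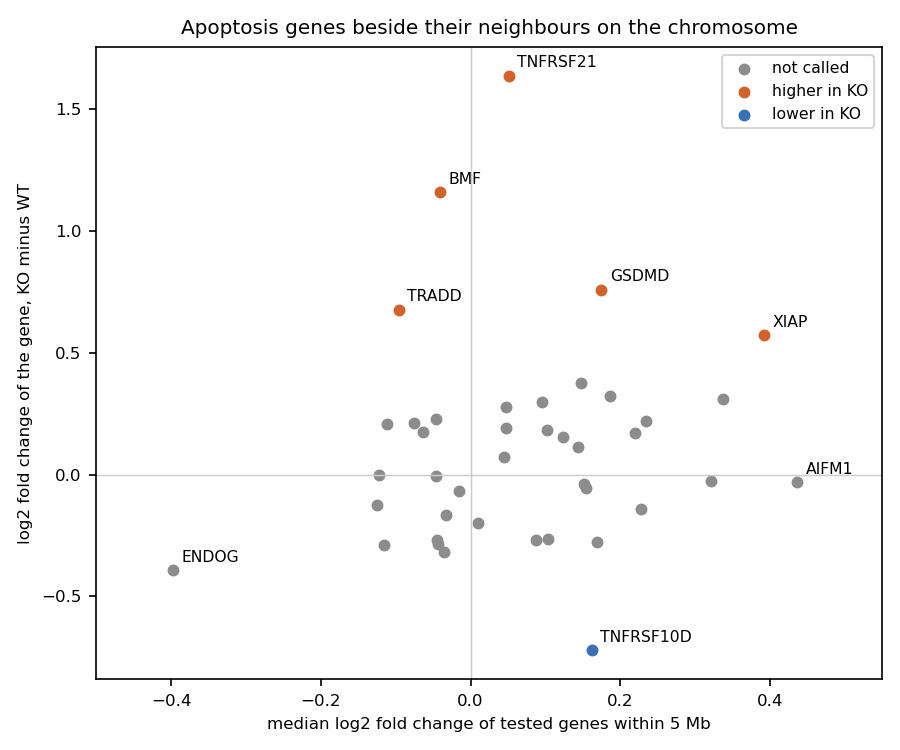
Log2 fold change of each tested member (y axis) against the median log2 fold change of the tested genes within 5 Mb on its chromosome (x axis), 1 point per gene, coloured by whether it passed the test. ENDOG lies at the far left, where its neighbours are also lower, and XIAP lies to the right among higher neighbours. TNFRSF21, BMF and TRADD lie far above neighbours that are near zero. They are named because they passed the test, and BMF entered it only through its KO values.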

How the data were processed

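RNA was measured in 4 libraries of MDA-MB-231, made with an Illumina TruSeq RNA kit from Trizol extracts of total RNA. Per the file headers, the authors' values are FPKM, 1 for each gene in each library. The submitters' processing notes name HISAT, StringTie, Cufflinks, GATK and hg38 without a role, and no read counts or depths were used here.

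Values were analysed as log2(FPKM + 1), a scale that understates changes of low genes. A gene was tested if 2 or more libraries reached 1 FPKM. limma 3.58.1 (R 4.3.3) was used with a mean-variance trend, and p-values were adjusted by Benjamini-Hochberg across the 11786 genes, at a threshold of 0.05. The method was tested on simulated data with independent libraries, which does not cover libraries of a group that share a culture. Sites and promoters were searched with Python 3.11.15. The members and lists were chosen with earlier results of these data known. By rule, values in every library are given for members that changed or differed by at least 0.5 and for the 2 highest of each role, and for the other list the 2 rises and 2 falls with the smallest p, BIRC2, BIRC3 and BIRC5. Genes that this rule also took are in part not reported here. Values of other members were added after they were seen, as were motifs and neighbours. Alternatives were other pseudocounts, filters, scaling, no trend, a replicate block and leaving out each library.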

Additional observations from a re-analysis of the deposited data

How the results depend on the processing

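Pseudocounts of 0.1 and 0.5 FPKM and limma without its trend kept the same 6 members as calls. Without the filter on low values 1 of 43 members, TNFRSF21, was higher and 0 were lower (limma, adjusted p under 0.05). Of the 19833 genes tested then, 290 were higher and 235 lower. Of 47 other cell death genes, 3 were higher and 3 lower. With median of ratios scaling 3 members were lower, beside 1613 of all 11786 tested genes. Over genes with at least 5 FPKM 5 members were called, BMF being left out of the test. Of the 8457 genes tested there, 1420 were higher and 1181 lower. The median log2 fold change of the members was 0.006 with scaling, -0.004 at the 5 FPKM limit and 0.148 without the second WT library. With scaling the median over all tested genes also fell, from 0.074 to 0.013.

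Leaving out 1 library at a time left 1 group with a lone library, assumed to vary like the other group. Members higher in KO then numbered 2 to 4 and members lower 0 to 1. Over all tested genes, 762 to 1373 were higher and 551 to 866 lower, and of the other cell death genes 2 to 5 were lower. The log2 fold change then ranged from -0.17 to 0.039 for BAX, -0.315 to 0.068 for BIRC6, -0.104 to 0.334 for TNFRSF1A and -0.413 to 0.263 for BIRC2, changing sign in each. None of these 4 passed with any library left out.

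The labels give both groups replicate numbers 1 and 2, with no word on pairing. Deviations of same-numbered libraries correlated at -0.18 across genes. With the replicate number as a block, 4 members were higher and 1 lower, beside 1756 and 1108 of all tested genes. XIAP (adjusted p 0.0514, limma) then no longer passed. With the numbers crossed, chosen after seeing the data, 5 members were higher and 2 lower, beside 2515 and 1655 of all tested genes. Read depth is unknown, so what it limits cannot be given.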
